A study of Mus musculus with 6 samples.

Results

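The tricarboxylic acid (TCA) cycle enzymes are described here through 9 genes taken by symbol from the deposited gene table of RNA from hematopoietic stem cells (HSC) sorted from mice, which give rise to all blood cells. All 9 were found among the 24062 genes listed, and all 9 passed the filter on low values that left 13734 genes tested. They are Cs, Idh3a, Ogdh, Sucla2, Suclg1, Sdha, Sdhb, Fh1 and Mdh2, chosen by name as enzymes of the cycle, with earlier results of these data known. The study has 3 control libraries and 3 CDKO libraries, each from a pool of 3 to 5 mice. Mice of both groups carried floxed alleles of the nuclear receptor gene Nr4a1 (Nr4a1 fl/fl) and lacked Nr4a3 (Nr4a3-/-), so no group here is wild type. CDKO mice carried in addition a construct labelled Rosa26-ERt2, by background a tamoxifen-activated Cre recombinase made from a widely expressed locus, so deletion is not limited to blood cells. All mice were given 4 daily doses of tamoxifen at 120 mg per kg before the sort on day 5. Age, sex, strain and the markers of the sort are not given in the sources used here. The construct and the intended deletion of Nr4a1 came together in the CDKO group, and their effects cannot be told apart. Nothing in the labels says that the pools were prepared separately, so p-values measure the spread between these 6 libraries only.

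The TCA cycle runs in the mitochondrial matrix. It joins acetyl-CoA to oxaloacetate, oxidises the resulting citrate in steps back to oxaloacetate, and passes the electrons to the respiratory chain as NADH and reduced flavin. Several of its enzymes are assemblies of different subunits encoded by separate genes, and intermediates leave the cycle as precursors for lipids, amino acids and heme. HSC in the marrow are known for a low reliance on mitochondrial respiration while quiescent and a greater one when they are activated.

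Library depth ranged from 32863805 to 42772261 counted reads. Levels are in CPM, reads per 1000000 of a library, and where no read was counted the level could be as high as 0.0701 to 0.0913 CPM depending on the library (3 counts, for counting error alone). Nr4a1 was measured at 15.2, 13.4 and 12.9 CPM in control and 8.52, 9.76 and 9.12 CPM in CDKO libraries, and Nr4a3 had 0 reads in all 6. The Nr4a1 level in CDKO pools was 0.661 of the control level (limma adjusted p = 0.00204), so most of its signal remained, and a count over the whole gene does not show how much of the floxed part was deleted. Of the 10 HSC marker genes listed, 5 were higher and 5 lower in CDKO pools (adjusted p under 0.05, limma), and their summed level was 4887 to 5143 CPM in control and 4512 to 4720 CPM in CDKO pools. Over all genes tested 66.2% passed this threshold, 31.1% higher and 35.2% lower, which is the background for all marker counts. Markers of other cells moved with the groups. All 10 neutrophil markers fell, with a summed level of 799.8 to 1048 CPM in control and 15.5 to 89.6 CPM in CDKO pools. Of 7 tested erythroid markers 5 fell and none rose, with sums of 259.9 to 276 CPM and 103 to 112 CPM (Hba-a1 and Hbb-bt had 0 reads in all libraries), and of 6 basophil and mast cell markers 5 fell and 1 rose, with sums of 199.9 to 259 CPM and 6.64 to 10.6 CPM. Of 5 tested B cell markers 1 rose and 3 fell, with sums of 46.3 to 55.9 CPM and 56.8 to 60.1 CPM and Ms4a1 at 0 reads. Both tested T cell markers rose, with sums of 16.6 to 19.8 CPM and 29.7 to 30.9 CPM and Cd3e, Cd3g and Cd8a at 0 reads. Of 8 macrophage markers 4 rose (Csf1r, C1qa, C1qb and C1qc) and 4 fell (Emr1, Cd68, Vcam1 and Mertk), with sums of 37.4 to 41.2 CPM and 48.6 to 53.1 CPM. The part of these cells in the values below was not tested. In bulk RNA, fewer cells of a type and less RNA per cell cannot be told apart.

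Of the 9 TCA cycle genes 6 rose in CDKO HSC and none fell (limma on log2(CPM + 1), Benjamini-Hochberg adjusted p under 0.05 over all genes tested). Sdhb, the iron-sulfur subunit of succinate dehydrogenase, rose the furthest at 1.52-fold, followed by Sucla2 at 1.37-fold and Idh3a at 1.23-fold. Mdh2, Fh1 and Ogdh rose by 1.16-fold, 1.14-fold and 1.12-fold. Sdha, Cs and Suclg1 did not pass. The share called among all genes tested was 66.2%, so the number of these genes called stands near the background with both directions pooled. By direction, 31.1% of all genes tested were called higher and 35.2% lower. The median log2 difference of the 9 genes was 0.19, beside -0.02 over all genes tested. Together the 9 genes took 2178 ± 41.5 CPM (SD, n = 3) in control and 2488 ± 30.9 CPM in CDKO pools, which is 0.213% to 0.222% of a control library and 0.245% to 0.252% of a CDKO library.

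**Figure D1:**
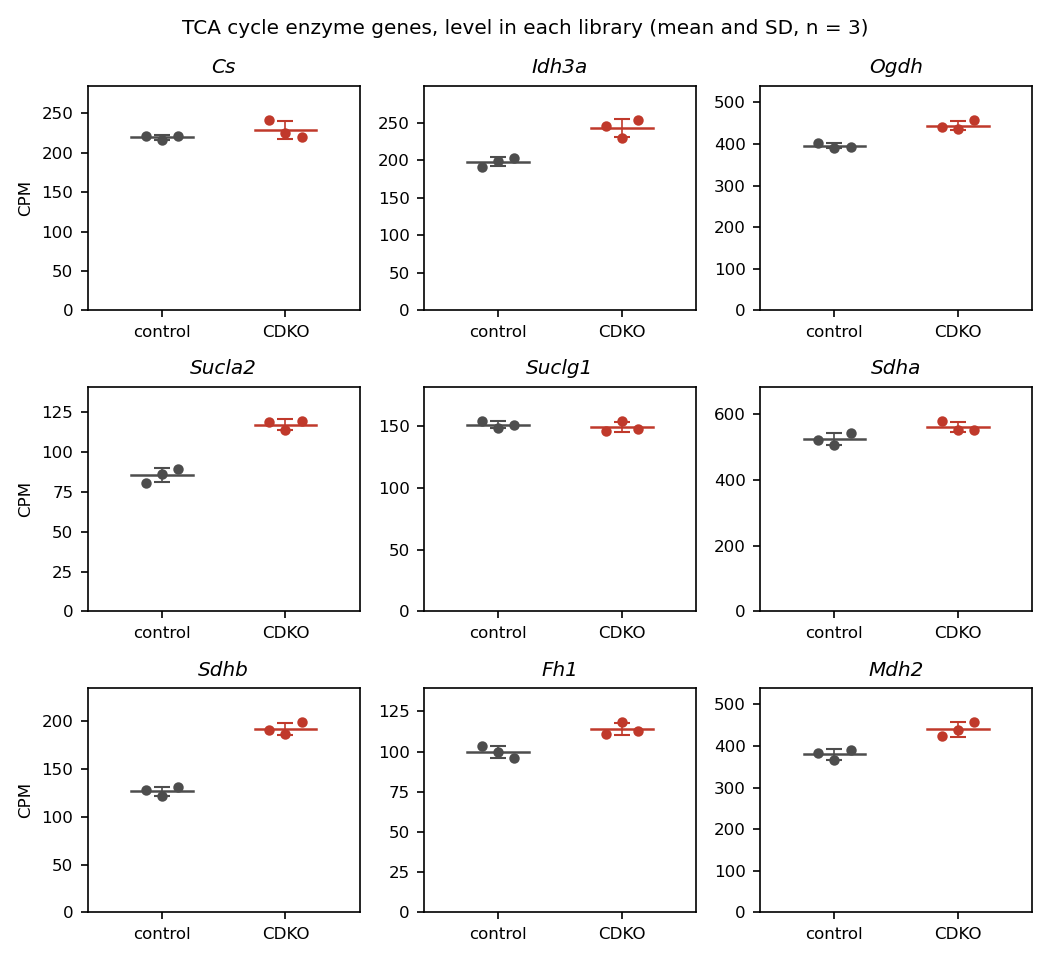
Level of each TCA cycle gene in CPM (vertical axes from 0), with 1 point per library, a bar at the mean and whiskers of 1 SD (n = 3), for control (grey) and CDKO (red). The CDKO points of Sdhb, from 186 to 199 CPM, lie well above the control points, from 122 to 131 CPM, while those of Suclg1 and Cs overlap with control.

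In the plot of levels by library the points of 7 of the 9 genes do not overlap between the groups, against 70.6% of all genes tested. With both directions pooled, that count too is near the background. In all 7 the CDKO points lay above control, beside 33.4% of all genes tested with CDKO above control and 37.2% below. Whether the direction of these genes differs from the background was not tested. The depth behind these genes was high. The fewest reads of any of them in any library was 3146 and the most 23537, and the SD between libraries of a group was 1.33% to 5.24% of the mean. At 3146 reads, counting error alone gives an SD of 1.78%.

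The promoters of the genes are shown as a description of sequence, since NR4A receptors, the family of Nr4a1, bind DNA at a known site. Whether these sequences bear on the rises was not tested. Promoter sequences before RefSeq starts (build GRCm38.p6, the assembly also called mm10) were available for 8 of the 9 genes, and Idh3a was not among them. The 250 bases before the start are printed 5′ to 3′ on the gene's own strand for the pair with the largest rise, Sdhb and Sucla2, and for the 2 genes in which a searched motif was found, Mdh2 and Ogdh. Capitals mark a match to the CREB motif TGACGTCA. Sdhb lies at chr4:140961021-140961270, Sucla2 at chr14:73552536-73552785, Mdh2 at chr5:135778399-135778648 and Ogdh at chr11:6291347-6291596, all on the plus strand.
Sdhb: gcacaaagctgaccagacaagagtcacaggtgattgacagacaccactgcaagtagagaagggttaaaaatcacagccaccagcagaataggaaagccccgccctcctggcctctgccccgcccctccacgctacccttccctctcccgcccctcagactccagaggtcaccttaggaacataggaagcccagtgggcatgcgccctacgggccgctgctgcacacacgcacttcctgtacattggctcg
Sucla2: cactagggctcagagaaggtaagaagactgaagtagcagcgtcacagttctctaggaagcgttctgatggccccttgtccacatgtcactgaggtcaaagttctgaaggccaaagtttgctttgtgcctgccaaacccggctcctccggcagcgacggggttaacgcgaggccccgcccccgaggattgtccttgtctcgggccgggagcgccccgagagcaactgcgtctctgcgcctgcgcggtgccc
Mdh2: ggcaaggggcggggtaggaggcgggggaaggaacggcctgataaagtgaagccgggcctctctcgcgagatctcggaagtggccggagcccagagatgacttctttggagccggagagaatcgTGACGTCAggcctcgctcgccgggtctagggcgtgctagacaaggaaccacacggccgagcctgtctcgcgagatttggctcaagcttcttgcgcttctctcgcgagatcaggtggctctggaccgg
Ogdh: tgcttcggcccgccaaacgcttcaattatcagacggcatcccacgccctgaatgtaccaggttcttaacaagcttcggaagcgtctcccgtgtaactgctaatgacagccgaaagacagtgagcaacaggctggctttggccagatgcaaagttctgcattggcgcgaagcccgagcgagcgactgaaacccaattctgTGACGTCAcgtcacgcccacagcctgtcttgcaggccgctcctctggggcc

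The motifs searched on both strands were AAAGGTCA (NBRE, the site bound by NR4A receptors), CCGGAAGT (GABPA), the palindromic NRF1 consensus, AAGATGGC (YY1), TCAAGGTCA (ERR, which shares its last 7 letters with NBRE) and TGACGTCA (CREB). The CREB letters were found in the Mdh2 window, with the first base at position -127, and in the Ogdh window at position -51, counted back from the start. Of 32851 RefSeq promoter windows of the same length 1.55% held them. Ogdh has 6 annotated starts, and 3 overlapping windows held this same match. NBRE, present in 1.34% of all windows, was in none of the windows of the 8 genes, nor were GABPA (2.88% of all windows), NRF1 (0.782%), YY1 (1.56%) and ERR (0.387%). The printed Sdhb and Sucla2 sequences therefore hold no capitals. A match is a description of the letters only. Windows without an exact match may hold a near match, and they say nothing of binding there or elsewhere. With the first listed start of each gene, the windows were 52.8% to 63.2% G and C, beside a median of 52.4% over all windows.

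Citrate synthase, encoded by Cs (chromosome 10, 128337727 to 128362482), makes citrate from acetyl-CoA and oxaloacetate and opens the cycle. Control libraries gave 222, 216 and 221 CPM and CDKO libraries 241, 225 and 220.1 CPM. CDKO replicates 1 and 2 lay above the controls and CDKO replicate 3 among them, so the groups overlapped. The log2 difference was 0.06 (95% interval -0.04 to 0.16, limma adjusted p = 0.273). Csl, a gene of 1 exon that is 91.9% identical to the Cs transcript over 1522 bases, averaged 3.26 ± 0.0953 CPM (control) and 4.13 ± 1.08 CPM (CDKO) and did not pass (limma adjusted p = 0.237). It passed without CDKO replicate 2 (limma adjusted p = 0.0436) and with quantile normalization (limma adjusted p = 0.0492). How reads shared between such close copies were counted is not known here, so the counts of both genes are uncertain, that of Csl above all.

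The NAD-dependent isocitrate dehydrogenase (IDH3), which makes 2-oxoglutarate, is built from a catalytic alpha subunit and the beta and gamma subunits. Idh3a, the alpha subunit gene (chromosome 9, 54586511 to 54604662), gave 191, 199 and 203 CPM in the control libraries, and the CDKO libraries gave 245, 230.0 and 253 CPM. All 3 CDKO values lay above all controls, a log2 difference of 0.30 (limma adjusted p = 0.00022, SE 0.0478). Idh3b, the beta subunit gene, went the other way and fell from 186 ± 6.04 CPM to 168 ± 6.61 CPM (limma adjusted p = 0.0213, log2 difference -0.14). Idh3b missed the threshold (limma adjusted p = 0.0792, 0.0543 and 0.072) when control replicate 1, CDKO replicate 2 or CDKO replicate 3 was left out, and with no filter on low values (0.0576). Over all alternatives its adjusted p ran from 0.0121 to 0.0792. Idh3g, the gamma subunit gene, averaged 172 ± 3.09 CPM (control) and 184 ± 6.96 CPM (CDKO) and did not pass (limma adjusted p = 0.0906), but passed without CDKO replicate 3 (limma adjusted p = 0.0441) and by DESeq2 (adjusted p = 0.0499). The ratio of Idh3a to Idh3b, chosen for display after its values were seen and so given with no test, was 0.995, 1.10 and 1.10 in the control libraries. In the CDKO libraries it was 1.40, 1.37 and 1.56.

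The 2-oxoglutarate dehydrogenase complex, which makes succinyl-CoA, holds the E1 enzyme encoded by Ogdh, the E2 core encoded by Dlst and the E3 subunit encoded by Dld, which it shares with pyruvate dehydrogenase. Ogdh (chromosome 11, 6291597 to 6359094) stood at 402, 391 and 394 CPM in the controls, against 439.8, 436 and 457 CPM in the CDKO libraries. The groups did not overlap, and the log2 difference was 0.17 (limma adjusted p = 0.00244, SE 0.0386). With quantile normalization it was smaller, at 0.098 (limma adjusted p = 0.0246). Dlst rose as well, from 112 ± 6.65 CPM to 139.7 ± 3.304 CPM (limma adjusted p = 0.00032, log2 difference 0.31), while Dld averaged 158 ± 4.45 CPM (control) and 166 ± 6.46 CPM (CDKO) and did not pass (limma adjusted p = 0.222). The E2 core of this complex carries lipoic acid, which dedicated enzymes make and attach. Of 5 genes of lipoic acid attachment 2 rose and 1 fell (median log2 difference -0.04), beside 31.1% higher and 35.2% lower over all genes tested. Lipt1, a lipoyl transferase, rose 1.92-fold (limma adjusted p = 3.12e-05), and Lipt2, which starts the transfer, fell from 23.7 ± 0.384 CPM to 12.7 ± 0.778 CPM (limma adjusted p = 2.4e-05). Mcat, of mitochondrial fatty acid synthesis, rose from 51.0 ± 2.71 CPM to 60.7 ± 2.19 CPM (limma adjusted p = 0.00566), and Lias, lipoic acid synthase, averaged 37.8 ± 0.913 CPM (control) and 34.7 ± 1.69 CPM (CDKO) and did not pass (limma adjusted p = 0.169).

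Succinyl-CoA ligase, which makes ATP or GTP directly, pairs a common alpha subunit with one of a pair of beta subunits. Suclg1, the alpha subunit gene (chromosome 6, 73248505 to 73276907), gave 154, 148 and 151 CPM in the controls, against 146, 154 and 148 CPM in the CDKO libraries. Its groups overlapped and the log2 difference was -0.02 (95% interval -0.12 to 0.08, limma adjusted p = 0.724). Both beta subunit genes rose. Sucla2, the ADP-using form (chromosome 14, 73552786 to 73596144), gave 80.6, 86.3 and 89.4 CPM in the controls, against 119, 114 and 119 CPM in the CDKO libraries. Every CDKO library was above every control, and the log2 difference was 0.45 (limma adjusted p = 2.58e-05, SE 0.0546). Suclg2, the GDP-using form, rose from 90.8 ± 2.67 CPM to 121 ± 9.95 CPM (limma adjusted p = 0.000163, log2 difference 0.40). A pseudogene copy of Suclg2, Gm15163, is 98.9% identical over 1302 bases, so the Suclg2 count is uncertain.

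Succinate dehydrogenase is both an enzyme of the cycle and complex II of the respiratory chain. Its Sdha subunit holds the flavin and oxidises succinate, Sdhb carries the electrons over iron-sulfur clusters, and Sdhc and Sdhd anchor the complex in the membrane. Sdhb (chromosome 4, 140961271 to 140979198), whose promoter is printed above, gave 127, 122 and 131 CPM in the controls, against 191, 186 and 199 CPM in the CDKO libraries. The groups were far apart, with a log2 difference of 0.60 (95% interval 0.49 to 0.70, limma adjusted p = 1.46e-06), and 11.7% of all genes tested had a higher difference. Sdha (chromosome 13, 74322255 to 74350240) gave 519, 507 and 543 CPM in the controls, against 578, 552 and 550.3 CPM in the CDKO libraries. Its groups did not overlap but lay close, and it did not pass (log2 difference 0.10, 95% interval 0.008 to 0.19, limma adjusted p = 0.0534). Sdha passed without control replicate 3 (limma adjusted p = 0.0383), with TMM scaling (limma adjusted p = 0.032), by edgeR (adjusted p = 0.0299) and by DESeq2 (adjusted p = 0.00746), and over all alternatives the adjusted p ran from 0.00746 to 0.519. The authors' deposited table gave an adjusted p under 0.05 to 7 of the 9 genes, the 6 that rose and Sdha. Sdhc averaged 72.4 ± 4.31 CPM (control) and 79.9 ± 5.21 CPM (CDKO) and did not pass (limma adjusted p = 0.084), but passed without CDKO replicate 3 (limma adjusted p = 0.0279). Sdhd averaged 144 ± 9.43 CPM (control) and 147 ± 9.80 CPM (CDKO) and did not pass (limma adjusted p = 0.642).

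Complex II is put together by assembly factors, and none of the 4 measured rose (median log2 difference -0.15). Over all genes tested 31.1% were called higher and 35.2% lower. Sdhaf1, which helps place the iron-sulfur clusters of Sdhb, fell from 31.4 ± 1.09 CPM to 26.4 ± 0.564 CPM (limma adjusted p = 0.0182, log2 difference -0.24). It missed the threshold without control replicate 3 (0.0625, limma adjusted p) and with quantile normalization (0.0639). Sdhaf2, which acts on the flavin of Sdha, fell from 59.1 ± 1.47 CPM to 52.2 ± 3.37 CPM (limma adjusted p = 0.0346, log2 difference -0.18). That fall was not called without control replicate 1, 2 or 3 or CDKO replicate 1 (limma adjusted p from 0.0567 to 0.123), nor with no filter on low values or with quantile normalization (limma adjusted p = 0.0694 and 0.0879), nor by DESeq2 (adjusted p = 0.0537). Sdhaf3, listed under its older symbol Acn9, averaged 7.51 ± 0.534 CPM (control) and 6.82 ± 0.707 CPM (CDKO), and Sdhaf4, listed as 1110058L19Rik, averaged 37.8 ± 0.869 CPM (control) and 39.5 ± 1.77 CPM (CDKO). Neither passed (limma adjusted p = 0.438 and 0.481).

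**Figure D2:**
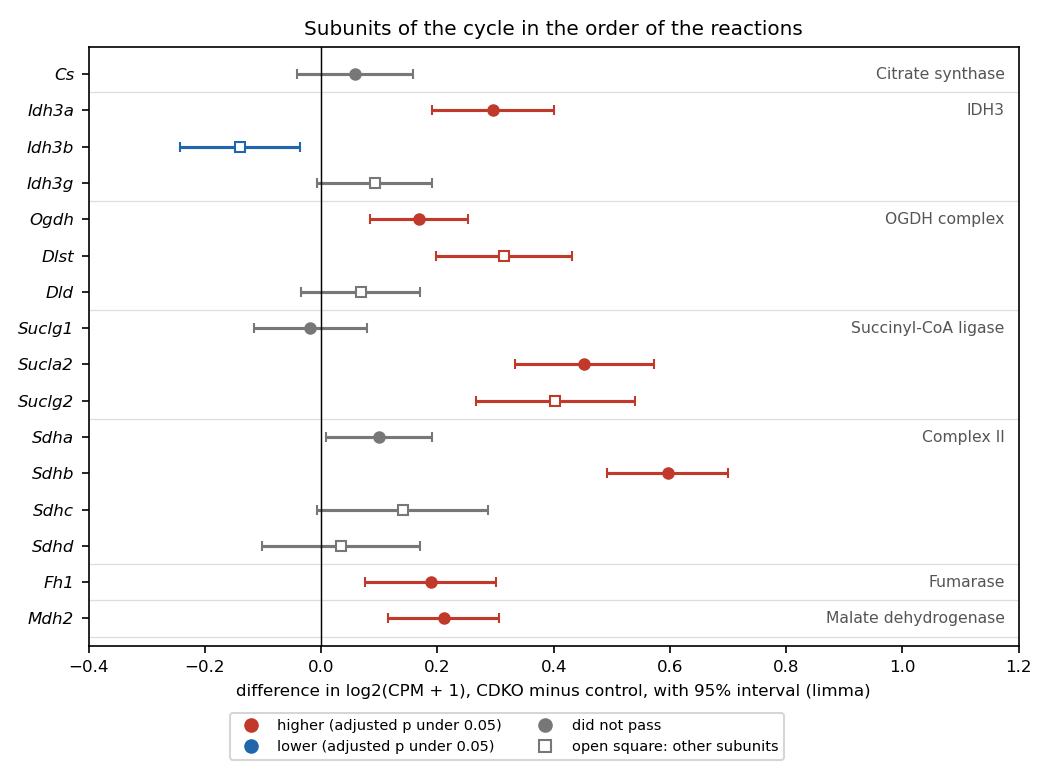
Difference in log2(CPM + 1), CDKO minus control (horizontal axis), with its 95% interval from limma, for 16 subunits of the cycle in the order of the reactions, with filled circles for the 9 genes and open squares for the other 7. Sdhb stands furthest to the right at 0.60, both beta subunits of succinyl-CoA ligase lie right of the alpha subunit, and Idh3b is the single subunit called lower.

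Fumarase, encoded by Fh1 (chromosome 1, 175601378 to 175625635), adds water to fumarate to make malate. Its values were 104, 99.9 and 96.1 CPM in the controls, against 111, 118 and 113 CPM in the CDKO libraries. All CDKO values were above the controls, with a log2 difference of 0.19 (limma adjusted p = 0.00711, SE 0.0516). Malate dehydrogenase of the mitochondrion, encoded by Mdh2 (chromosome 5, 135778649 to 135790386), closes the cycle by making oxaloacetate. Its values were 382, 366 and 390.3 CPM in the controls, against 423, 439 and 457 CPM in the CDKO libraries. These groups too did not overlap, and the log2 difference was 0.21 (limma adjusted p = 0.00124, SE 0.0436). Pseudogene copies of Mdh2 are 85.4% and 87.0% identical over 459 and 632 bases. As drawn in the plot in reaction order, 8 of the 16 subunits rose, 1 fell and 7 did not pass. Among the 7 subunits beyond the 9 genes 2 rose and 1 fell, with a median log2 difference of 0.09. Beside both counts, 66.2% of all genes tested were called, 31.1% higher and 35.2% lower.

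Ratios between subunits of one enzyme do not depend on library scaling. Each follows from the levels of its genes given above, so it is no separate evidence. The genes were chosen with earlier results of these data known. With 3 libraries against 3, the smallest p that the exact permutation test can give is 0.1, so none of these ratios can reach 0.05. The ratio of Sdhb to Sdha in CPM was 0.245, 0.240 and 0.241 in the controls, against 0.330, 0.338 and 0.361 in the CDKO libraries. The difference of 0.50 on the log2 scale was larger than the spread within either group (exact permutation p = 0.1, two-sided). Sucla2 over Suclg1 was 0.524, 0.581 and 0.593 in the controls, against 0.815, 0.738 and 0.806 in the CDKO libraries, again with no overlap (log2 difference 0.47, exact permutation p = 0.1). Sucla2 over Suclg2 averaged 0.941 ± 0.0222 (control) and 0.9755 ± 0.0611 (CDKO). These overlapped, and the log2 difference of 0.05 was within the spread between libraries (exact permutation p = 0.4).

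**Figure D3:**
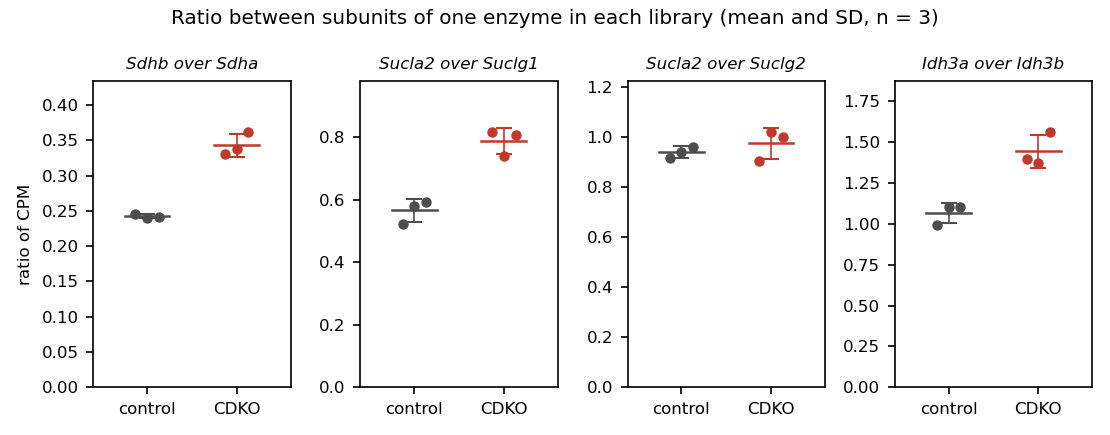
Ratio of CPM between subunits of one enzyme in each library (vertical axes from 0), with points for libraries, bars for means and whiskers of 1 SD (n = 3). Sdhb over Sdha, Sucla2 over Suclg1 and Idh3a over Idh3b are higher in all 3 CDKO libraries, and Sucla2 over Suclg2 overlaps between the groups.

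Levels of different genes were compared per kilobase of the longest transcript paired with RefSeq. In control pools Mdh2 led with 261 ± 8.35 CPM per kilobase (SD, n = 3), followed by Sdha at 180.3 ± 6.25, Sdhb at 111 ± 3.96, Suclg1 at 99.5 ± 1.84 and Ogdh at 95.8 ± 1.46. Idh3a, at 82.2 ± 2.502 CPM per kilobase, and Cs, at 75.1 ± 0.997, came next, and Sucla2 and Fh1 were lowest at 38.3 ± 2.01 and 37.9 ± 1.46. Sucla2 and Fh1 overlapped, and the other neighbours in that order did not. In CDKO pools Mdh2 (302 ± 11.7 CPM per kilobase), Sdha (193 ± 5.27) and Sdhb (168 ± 5.43) again led. Suclg1, at 98.2 ± 2.72, stood below Ogdh at 108 ± 2.71 and overlapped with Idh3a at 101 ± 4.89. Cs, Sucla2 and Fh1 came last at 78.2 ± 3.76, 52.6 ± 1.42 and 43.2 ± 1.43, with no overlap between them. A level per length assumes even coverage along the transcript.

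**Figure D4:**
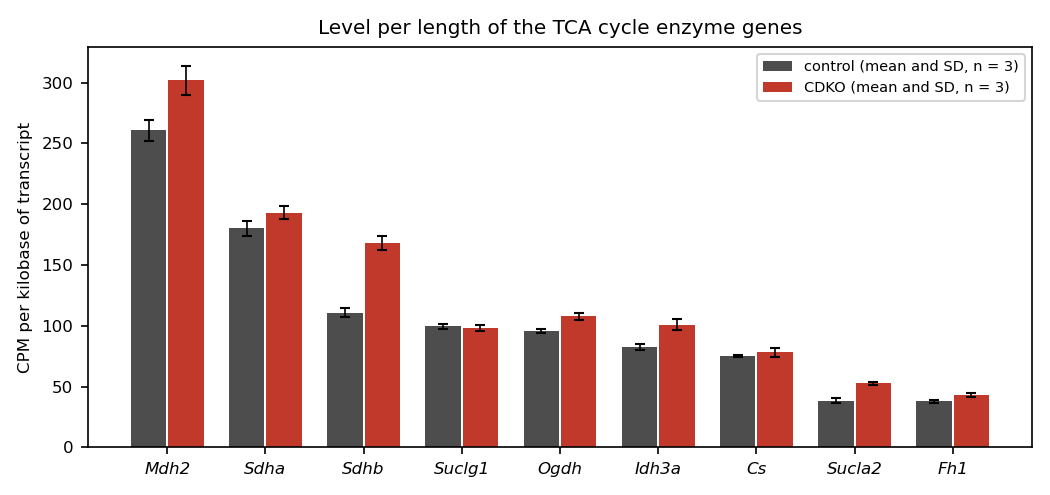
Mean level of each of the 9 genes in CPM per kilobase of transcript (vertical axis from 0), with control in grey, CDKO in red and whiskers of 1 SD (n = 3), in the order of the control levels. Mdh2 is highest at 261 in control and 302 in CDKO pools, and Sucla2 and Fh1 are lowest.

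Genes whose level over the 6 libraries ran most like a TCA cycle gene were found by the root mean square distance between log2(CPM + 1) profiles, each centred on its own mean, among 9886 genes with a mean of at least 10 CPM. For Sdhb, which had the highest difference, they were Lrpprc, an RNA-binding protein of mitochondria (distance 0.0229), Mndal, an interferon-inducible gene (0.0262), and Ifngr2, a subunit of the interferon gamma receptor (0.0262). Their log2 differences were 0.57, 0.62 and 0.64, near that of Sdhb itself. For Suclg1, with the lowest difference, they were Ankrd39 (0.0127), Cpsf3 (0.0132) and Emid1 (0.0148). These had log2 differences of -0.04, 0.004 and -0.03, and none passed. A short distance can follow from a like difference between the groups alone.

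Enzymes that run the same reactions outside the cycle or with NADP, with a few related ones, were mixed. Of 9 tested genes 3 rose and 2 fell (median log2 difference 0.20), beside 31.1% higher and 35.2% lower over all genes tested. Aco1, the cytosolic aconitase that also acts as an iron-regulated RNA-binding protein, fell from 73.8 ± 0.402 CPM to 47.7 ± 2.68 CPM (limma adjusted p = 6.91e-06, log2 difference -0.62). Idh1, the cytosolic NADP-dependent isocitrate dehydrogenase, fell from 30.0 ± 2.23 CPM to 21.9 ± 3.68 CPM (limma adjusted p = 0.00623) and missed the threshold with no filter on low values (limma adjusted p = 0.0727). Its mitochondrial counterpart Idh2 rose from 238 ± 0.969 CPM to 279 ± 8.84 CPM (limma adjusted p = 0.000517, log2 difference 0.22). Malic enzymes turn malate into pyruvate. Me1, the cytosolic one, rose 2.95-fold, with 5.19, 4.22 and 5.27 CPM in the controls against 17.0, 12.1 and 14.2 CPM in the CDKO libraries (limma adjusted p = 1.33e-05, log2 difference 1.38). Me2, of mitochondria, rose from 95.6 ± 3.28 CPM to 121 ± 8.29 CPM (limma adjusted p = 0.00038), while Me3 had 0 reads in all libraries. Mdh1, the cytosolic malate dehydrogenase, averaged 322 ± 9.10 CPM (control) and 328 ± 1.68 CPM (CDKO), and Acly, which splits citrate in the cytosol, averaged 282 ± 5.56 CPM (control) and 285 ± 3.63 CPM (CDKO). Neither passed (limma adjusted p = 0.614 and 0.814). Ogdhl, a homolog of Ogdh, had 0.588, 0.466 and 0.283 CPM in the controls and 0 reads in the CDKO libraries and was too low to be tested. Dhtkd1, another homolog, averaged 1.07 ± 0.787 CPM (control) and 1.27 ± 0.186 CPM (CDKO) and did not pass (limma adjusted p = 0.473), but passed without control replicate 3 (limma adjusted p = 0.0366).

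Genes that feed or drain the cycle and the carriers of its metabolites went both ways. Over all genes tested, too, 31.1% were called higher and 35.2% lower. Of the 9 genes of filling and draining described here 2 rose and 1 fell (median log2 difference 0.07). D2hgdh, which returns D-2-hydroxyglutarate to 2-oxoglutarate, fell from 51.2 ± 1.02 CPM to 38.9 ± 0.423 CPM (limma adjusted p = 0.000265). Gpt2, an alanine aminotransferase of mitochondria, rose from 9.80 ± 1.94 CPM to 16.5 ± 1.1997 CPM (limma adjusted p = 0.00109). Of the aspartate aminotransferases, mitochondrial Got2 rose 1.12-fold (limma adjusted p = 0.0107), and cytosolic Got1 averaged 51.6 ± 3.17 CPM (control) and 57.4 ± 1.46 CPM (CDKO) and did not pass (limma adjusted p = 0.0589), but passed without control replicate 2 (limma adjusted p = 0.031), with an adjusted p from 0.0276 to 0.181 over all alternatives. Of 9 carriers 2 rose and 5 fell (median -0.20). Slc25a1, which exports citrate, rose from 126 ± 3.33 CPM to 176 ± 2.52 CPM (limma adjusted p = 3.52e-06). The aspartate-glutamate carriers split, since Slc25a12 rose from 135 ± 6.14 CPM to 161 ± 6.34 CPM while Slc25a13 fell from 60.1 ± 3.93 CPM to 38.6 ± 1.13 CPM (limma adjusted p = 0.00122 and 1.55e-05). Slc25a11, the 2-oxoglutarate carrier, fell from 233 ± 4.46 CPM to 195 ± 16.4 CPM (limma adjusted p = 0.00169).

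The pathways next to the cycle are set beside it by counts and medians only, and the 4 genes of smallest p are named from each. Over all genes tested 66.2% were called, 31.1% higher and 35.2% lower, and each count here is to be read beside these shares. Of 35 tested complex I subunits 16 rose and 2 fell (median log2 difference 0.14). Ndufs1, an iron-sulfur subunit, rose from 102 ± 4.16 CPM to 135 ± 7.15 CPM, the accessory subunits Ndufc2 and Ndufa12 rose 1.36-fold and 1.43-fold, and Ndufv3 fell from 80.1 ± 1.74 CPM to 54.8 ± 0.680 CPM. Of 23 genes of glycolysis and pyruvate dehydrogenase 9 rose and 3 fell (median 0.07). Ldha, which makes lactate, rose from 627 ± 18.4 CPM to 835 ± 26.0 CPM, and Tpi1, a glycolytic isomerase, rose from 221 ± 6.67 CPM to 276 ± 5.15 CPM. Pdk3, a kinase that inhibits pyruvate dehydrogenase, rose 1.36-fold, while Pfkm, a phosphofructokinase, fell from 108 ± 2.19 CPM to 63.6 ± 5.67 CPM. Fatty acid oxidation had 8 rises and 5 falls among 16 genes (median 0.15). Hadha, the alpha subunit of the trifunctional protein, rose from 93.6 ± 5.48 CPM to 177 ± 7.93 CPM. Etfb, of the electron transfer flavoprotein, and Acadvl, which oxidises very long chains, rose 1.31-fold and 1.35-fold, and Hadh fell from 179.9 ± 0.984 CPM to 127 ± 10.8 CPM. Of 13 regulators of mitochondrial genes 6 rose and 2 fell (median 0.17). Pprc1 and Ppargc1b, coactivators of the PGC-1 family, rose 1.64-fold and 1.61-fold, and Nrf1 and Gabpa rose 1.24-fold and 1.44-fold. The 2 regulators that fell were not among the 4 of smallest p. The genes named among these 4 lists had a limma adjusted p of at most 0.000281, which follows from choosing them by p. Whether the TCA cycle genes differ from these lists was not tested.

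**Figure D5:**
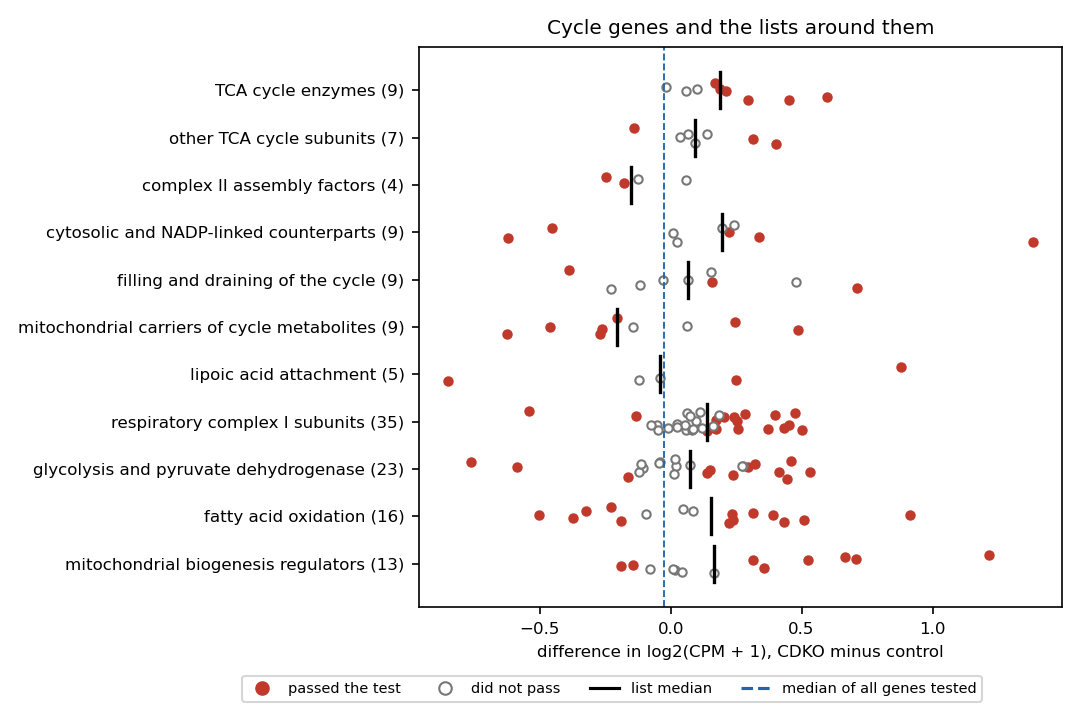
Difference in log2(CPM + 1), CDKO minus control (horizontal axis), for each tested gene of the 11 lists (number of genes in brackets), filled where the gene passed the test, with a black bar at the list median and a dashed line at the median of all genes tested, -0.02. The 9 TCA cycle genes spread from -0.02 to 0.60, with none called lower, and the carrier and assembly factor lists have the lowest medians, -0.20 and -0.15.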

How the data were processed

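RNA from sorted HSC of 3 control and 3 CDKO pools was, per the labels, amplified from total RNA with the SMARTer ultra low input kit and made into Nextera XT libraries, which do not mark strand. TopHat2, HTSeq, DESeq2 and the build mm10 are named per the submitters' processing notes, with no version, and the gene annotation is not given in the sources used here. The deposited values are CPM for each library, and every column sums to 1000000. Dividing by the value of 1 read gave whole reads for 100.0% of values above 0, with a tolerance of 0.01 read. As for the other deposited columns, baseMean holds a signal (mean of scaled counts), the fold change with its error is on the log2 scale with control over CDKO, stat holds a score, and each p-value, raw or adjusted, comes from the authors' DESeq2 run. Of these only the adjusted p-values of the TCA cycle genes are quoted.

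Genes with a mean of at least 10 recovered reads (0.255 CPM at the mean depth) entered a limma fit (version 3.58.1, R 4.3.3) of CDKO minus control on the log2(CPM + 1) scale. Variances were moderated by eBayes with a trend on the mean, and two-sided p-values were adjusted over all 13734 genes. Fold changes are ratios of mean CPM, and log2 differences understate changes of low genes. The 12 genes listed as dates were left out. Limma was tested on simulated data. The 9 genes and all lists and motifs were chosen with earlier results of these data known. The rule for naming took all 9 genes, every gene of the 3 closest lists, and up to 4 genes of smallest p from each further list. Some genes of these lists are not reported here and are left out of the counts and medians of the lists. The alternatives tried were a replicate block, each library left out in turn, other filters, scalings and pseudocounts, a loess correction for GC content and transcript length (99.1% of tested genes), and count models on the recovered reads (edgeR version 4.0.16 and DESeq2 version 1.42.0). Gene positions are from RefSeq GRCm38.p6. Transcript lengths, exon overlaps and copies (blastn, at least 85% identity over 400 bases) are from GENCODE M21, with lengths from the longest transcript that GENCODE pairs with RefSeq.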

Additional observations from a re-analysis of the deposited data

How the results depend on the processing

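Of the 9 TCA cycle genes 8 kept their direction and their side of the threshold in every alternative run, and Sdha kept its direction in all of them and passed in 7. Among the 6 genes called, Ogdh alone moved by over 1.5 times, to 0.098 with quantile normalization. The number called higher was 6 or 7 throughout, 6 to 7 when 1 library was left out, and none was called lower in any alternative. Over all genes the number called was 9097, between 8272 and 8669 when 1 library was left out, and 6576 at a mean of at least 10 CPM, where fewer genes are tested. No label states that the replicate number marks a pair, and deviations of same-numbered libraries correlated at 0.0518, 0.0483 and -0.012. With replicate number as a block, 9242 genes were called in all and 7 of the 9, Sdha being the added one (limma adjusted p = 0.047). Leaving out 1 library at a time, the log2 difference of the ratio ran from 0.46 to 0.52 for Sdhb over Sdha, from 0.42 to 0.52 for Sucla2 over Suclg1 and from 0.017 to 0.102 for Sucla2 over Suclg2. Some genes that were not called in the limma fit on all 6 libraries turned direction. These were Mdh1 (-0.0052) after the GC and length correction, and Acn9 (0.028) and Acly (-0.0080) with quantile normalization. With 1 library left out, the log2 difference ran from -0.0048 to 0.023 for Acly, from -0.024 to 0.49 for Dhtkd1 and from -0.019 to 0.075 for Sdhd. The causes were not tested. The largest shift of the median of all genes by a scaling was 0.043 on the log2 scale.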
